A study of Mus musculus with 78 samples.

Results

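The genes described here are Krt8 and Krt18, which encode the keratin pair of simple epithelia, and Des, which encodes desmin, the main intermediate filament protein of muscle. They were taken by mouse symbol, and all 3 are among the 36904 gene IDs of the count table and among the 18218 genes that passed the filter on low counts. Krt8 and Krt18 were chosen by their levels in the soleus of male mice at 28 against 6 months in batch 1, where they had been noticed for a large rise. The values of that contrast are therefore given as a description, with no test.

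The samples were bulk RNA-seq libraries of soleus, a slow-twitch postural muscle of the calf, from C57Bl/6 mice. After 2 libraries that share an animal tag were joined into 1 replicate, 77 replicates in 11 groups were compared. Control-fed females of batch 1 numbered 4, 6, 6 and 6 at the ages of 6, 12, 20 and 28 months, and control-fed males of that batch 6, 6, 9 and 5. Every replicate of batch 2 was 28 months old, namely 7 control-fed females, 10 control-fed males and 12 males fed 2% CaAKG, calcium alpha-ketoglutarate, a salt of a tricarboxylic acid cycle metabolite. The label M28 was read as 28 months, and the labels call the batches 1 and 2 without saying what they stand for. Mice of 6 and 12 months came from Invivos in Singapore and mice of 20 months from the Jackson Laboratory, so supplier and age cannot be told apart between them. A separate group arrived at 17 months and was assigned at random, after acclimatization, to control feed or to compounds. The labels do not say which of the 28-month mice belong to this group, so their origin and age cannot be told apart.

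Library totals lay between 19460372 and 81637535 counts, with a median of 35209190. The slow myosin gene Myh7 was detected in every replicate, between 1350 and 18400 counts per 1000000 (CPM), as the labelled tissue implies. In 5 of 77 replicates the sex-linked genes went against the sex label, all at 6 or 12 months. In 5 of 77 replicates the summed level of 12 epidermal keratins exceeded 100 CPM, with a highest value of 7500 CPM. Both sets of replicates stayed in the fits, and the results on Krt8 and Krt18 in females at 28 months are also given without them. P-values measure only the spread between these samples, which the labels do not state to come from separate animals. In bulk tissue, fewer cells of a type and less RNA per cell cannot be told apart.

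Keratins form filaments only as pairs of a type I and a type II protein. Krt8 is the type II and Krt18 the type I partner of the pair that appears first in the embryo and persists in simple epithelia such as gut and liver, whereas the pairs Krt5 with Krt14 and Krt1 with Krt10 belong to the basal and upper layers of the epidermis. Adult muscle fibres rely on desmin, a type III protein that assembles with itself, links neighbouring Z-discs and ties myofibrils to the cell membrane and nuclei. Keratin 8, with a type I partner, has also been described at low level in striated muscle, at Z-discs and at costameres, the membrane sites that anchor the sarcomere.

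In the GENCODE M21 annotation of mm10, Krt8 (ENSMUSG00000049382) lies on the minus strand at chr15:101996698-102004482 and Krt18 (ENSMUSG00000023043) on the plus strand at chr15:102028180-102032027, 23698 bases apart. Des (ENSMUSG00000026208) lies on the plus strand at chr1:75360329-75368579. All 3 are protein-coding genes that RSEM counted over their exons. Krt18 is the only type I keratin gene of the chromosome 15 keratin cluster, next to its own partner. The proximal promoters of the neighbours are shown because both genes moved together, as described below. They come from RefSeq (GRCm38.p6), where all 3 symbols matched, and run from 250 bases before to 25 bases after the RefSeq start, 5′ to 3′ on the strand of the gene. The RefSeq starts of Krt8 and Krt18 lie inside the GENCODE genes given above. Part of each printed sequence before the RefSeq start therefore belongs to the gene in that annotation. Capitals mark matches on either strand to the TATA-type motif TATAAA, to its variant with the letters ATATAA or to the E-box CANNTG, the core of sites bound by basic helix-loop-helix factors such as the myogenic ones.
Krt8, chr15:102004318-102004592, minus strand: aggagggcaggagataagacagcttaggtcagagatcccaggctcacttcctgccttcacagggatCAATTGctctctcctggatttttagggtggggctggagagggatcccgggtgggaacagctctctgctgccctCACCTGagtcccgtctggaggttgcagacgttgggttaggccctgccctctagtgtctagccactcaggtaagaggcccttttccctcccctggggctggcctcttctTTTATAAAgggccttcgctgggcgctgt
Krt18, chr15:102027966-102028240, plus strand: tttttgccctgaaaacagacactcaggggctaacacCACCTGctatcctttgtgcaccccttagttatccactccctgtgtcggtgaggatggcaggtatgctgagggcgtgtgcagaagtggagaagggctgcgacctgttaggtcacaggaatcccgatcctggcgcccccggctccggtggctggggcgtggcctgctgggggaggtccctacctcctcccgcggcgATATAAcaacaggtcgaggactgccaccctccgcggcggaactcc
The searched window ran to 50 bases after the start. Krt8 held TATAAA at positions -1 to 5 from its start and, overlapping it, the reverse match TTTATA at -3 to 3, and Krt18 held ATATAA at -20 to -15. TATAAA occurs in 13.6% and ATATAA in 9.82% of 32851 promoters of the same length. Krt8 held 3 E-boxes, Krt18 1 and Des 2, a motif present in 72.3% of all promoters. Des had GGGCGG on the reverse strand at -87 and -69, a match found in 35.7% of promoters. None of the windows matched CCAAT, which 37.4% of promoters hold, or the AP-1 site TGAGTCA, which 5.2% hold. The RUNX core TGTGGT (16.8% of promoters), the CArG box (1.63%) and the p53 motif (8.36%) had no match either.

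Krt18 was close to absent from soleus up to 20 months and present at 28 months in a highly uneven way. Its median was 0.219 CPM over the 37 replicates of 6 to 20 months and 3.95 CPM over the 40 replicates of 28 months. The highest younger value was 1.58 CPM, and 26 of the 40 oldest replicates exceeded it. That value is from 12-month female replicate 1, whose sex-linked genes went against its label, and the next highest younger value was 0.848 CPM. Among the 40 the level ran from 0.013 CPM, which is a single count, to 81.1 CPM, and without that lowest replicate the highest was 1330 times the next lowest. Krt8 followed at a lower level, with a median of 0 CPM in younger and 0.973 CPM in 28-month replicates. Krt8 had no counts in 20 of 37 younger replicates and in 0 of 40 older ones, and 25 of 40 exceeded the highest younger value of 0.291 CPM. Leaving out the 28-month batch 1 males that chose the genes, 24 of 35 replicates for Krt18 and 23 of 35 for Krt8 lay above all younger ones. The younger replicates still hold the 6-month males that also chose the genes, and the 0.291 CPM is from their replicate 1. The medians over 37 and 40 replicates include groups that chose the genes, so these values and counts are a description. Des spanned a 3.52-fold range among the 40, and 2 of them lay above the highest younger value of 6670 CPM.

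**Figure D1:**
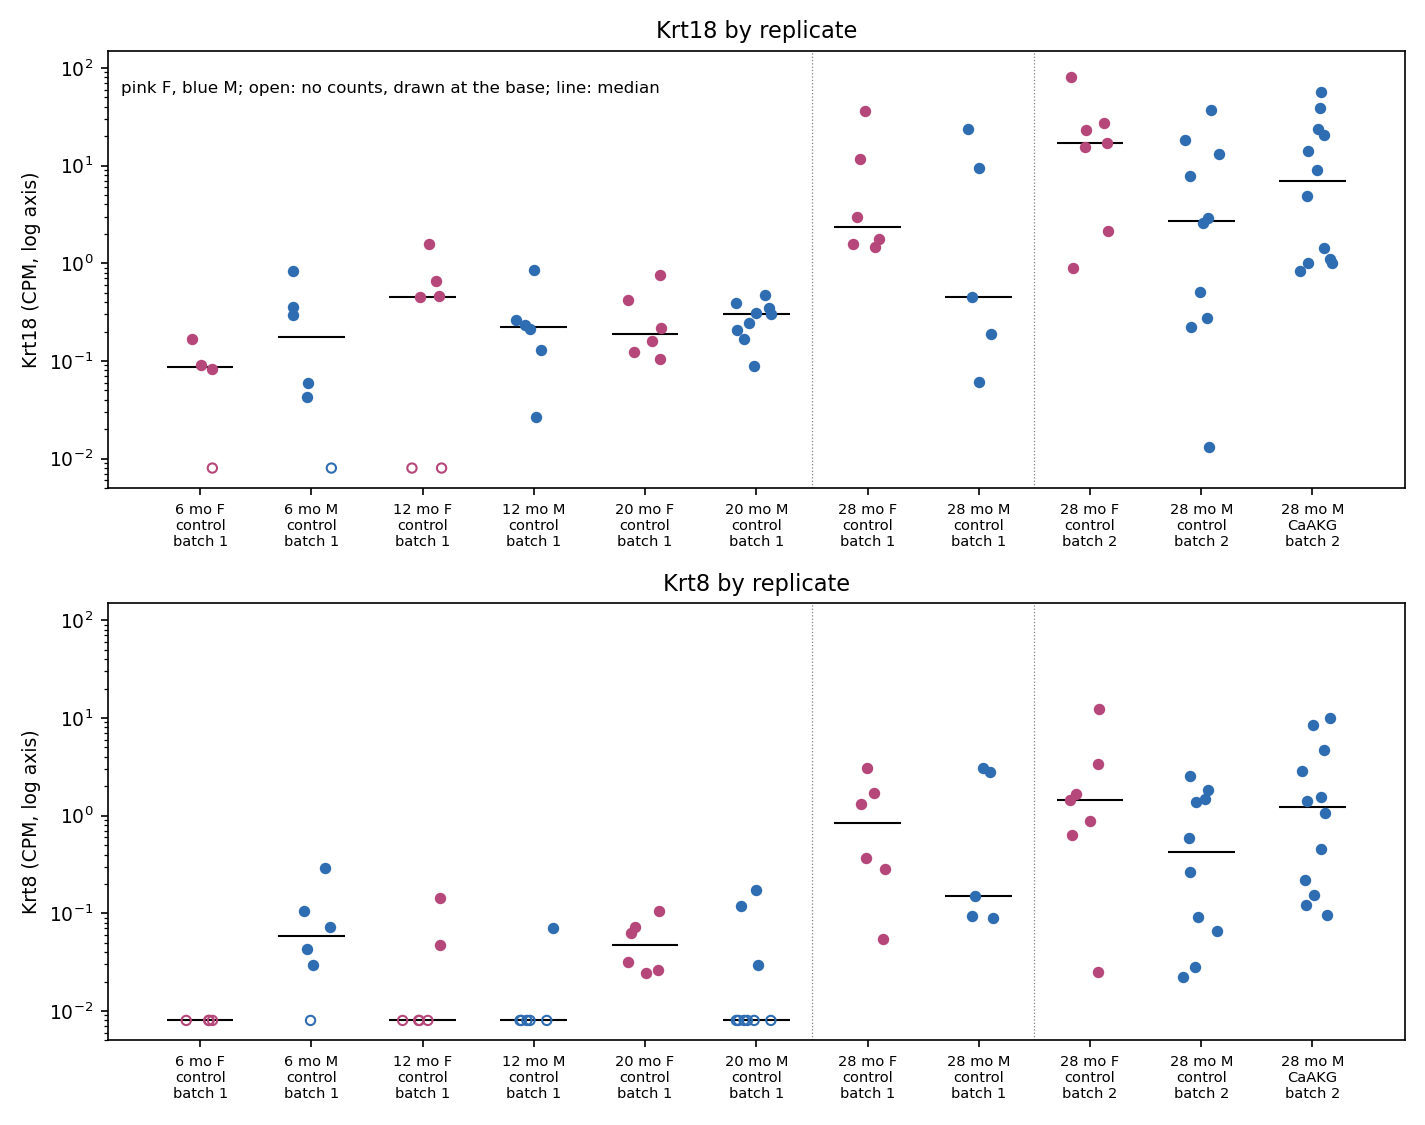
Levels of Krt18 (top) and Krt8 (bottom) in CPM on a log axis, 1 point per replicate, by group, with females in pink, males in blue and the group median as a line. Open points have no counts and are drawn at the base of the axis. Replicates of 28 months spread from the younger range up to 81.1 CPM for Krt18 and 12.3 CPM for Krt8.

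In younger mice Krt18 lay between 0 and 0.167 CPM in females and between 0 and 0.831 CPM in males at 6 months. At 12 months it lay between 0 and 1.58 CPM in females and between 0.0267 and 0.848 CPM in males. At 20 months it lay between 0.104 and 0.766 CPM in females and between 0.0879 and 0.475 CPM in males. These 6 groups overlapped throughout. Krt8 over the same groups had 0 CPM in all 4 females of 6 months and reached 0.291 CPM in males of 6 months, 0.144 and 0.0707 CPM in females and males of 12 months, and 0.106 and 0.175 CPM in females and males of 20 months. A value of this size rests on a handful of reads.

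In females of 28 months in batch 1, Krt18 was at 11.6, 1.58, 1.46, 36.4, 1.76 and 2.99 CPM in replicates 8 to 13. The same replicates had 1.31, 0.284, 0.0551, 3.08, 0.368 and 1.7 CPM of Krt8. Replicates 8 and 11 were high for Krt18, and every one of the 6 was above all females of 6 and of 20 months.

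Females of 28 months in batch 2 had 81.1, 16.9, 0.9, 27.0, 15.7, 2.12 and 23.2 CPM of Krt18 in replicates 1 to 7. Krt8 was at 12.3, 0.89, 0.025, 3.39, 1.44, 0.628 and 1.66 CPM. Replicate 1 held the highest level of both genes in the series, while replicate 3 lay within the younger range for both.

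The males of 28 months in batch 1, replicates 11 to 15, had 0.448, 0.19, 9.52, 0.0607 and 23.5 CPM of Krt18 and 0.0895, 0.0948, 2.77, 0.152 and 3.06 CPM of Krt8. Replicates 13 and 15 were high for both genes and the other 3 were not, so that the group median of Krt18 was 0.448 CPM against a mean of 6.75 CPM. Against males of 6 months, the contrast by which the genes were chosen, the fitted log2 differences were 4.58 for Krt18 (6.75 against 0.264 CPM) and 3.71 for Krt8 (1.23 against 0.0906 CPM), in a comparison that called 16.1% of all genes. The Krt18 difference was 3.16 without replicate 15.

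Ordered by median, Krt18 was highest in batch 2 females of 28 months (16.9 CPM), followed by CaAKG-fed males (6.96 CPM), batch 2 control males (2.74 CPM) and batch 1 females of 28 months (2.38 CPM). All other groups had medians of 0.455 CPM or less, the batch 1 males of 28 months among them. The ranges of neighbours in this order overlapped among the 4 highest groups, and those of the younger groups overlapped among themselves.

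Both keratin genes were called higher in old females, where the choice of genes used no library. In this comparison and the next, the origin of the 28-month mice cannot be told apart from their age. Between 28 and 6 months, Krt18 rose from a mean of 0.0848 ± 0.0681 CPM (SD, n = 4) to 9.31 ± 13.9 CPM (SD, n = 6), or by 6.84 ± 1.75 (SE) on the log2 scale, with an adjusted p = 0.0044 by the edgeR quasi-likelihood test (Benjamini-Hochberg over all genes). Krt8 had no counts at 6 months and a mean of 1.13 ± 1.15 CPM (SD, n = 6) at 28 months, at least 58.2-fold higher than the 0.0194 CPM that 3 counts over the 4 younger females would give (edgeR adjusted p = 0.004). A call stands for an adjusted p under 0.05. In this comparison 18.9% of all genes were called, and 9.91% of all genes were called higher. The 6 older and 4 younger females did not overlap for either gene, and how many of all genes do so was not counted. An exact two-sided permutation test on log2(CPM + 0.1) gave p = 0.0095 for each, the smallest that 6 against 4 allows, and 0.04 after adjustment over 42 such tests. Replicate 11 holds much of that mean: without it the mean was 3.89 ± 4.38 CPM for Krt18 (SD, n = 5) and 0.742 ± 0.717 CPM for Krt8 (SD, n = 5). The edgeR log2 fold changes without it were 5.63 and 7.91 (adjusted p = 0.017 and 0.0087), the lowest when 1 replicate was left out, and the highest were 7.13 and 8.73. Without the epidermal-keratin library the edgeR log2 fold changes were 6.81 for Krt18 and 8.46 for Krt8 (adjusted p = 0.0052 and 0.0054), and without libraries against their sex label they were 6.92 and 8.53 (adjusted p = 0.024 and 0.023). Neither gene was called when only the 2 groups were fitted, nor with limma-voom quality weights (5.74 for each).

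Between 28 and 20 months in females, Krt18 was higher by 4.88 on the log2 scale (SE 1.2, edgeR adjusted p = 0.0015) and Krt8 by 4.31 (SE 1.2, edgeR adjusted p = 0.0051). The comparison called 29.9% of all genes, and 17.3% as higher. With limma-voom quality weights the values were 4.31 and 3.39, without a call. Without the epidermal-keratin libraries edgeR gave 4.84 and 4.30, both called. Without replicate 11 of 28 months it gave 3.68 and 3.76 (adjusted p = 0.011 and 0.013), again the lowest with 1 replicate left out. The exact permutation test gave p = 0.0022 for Krt18, where groups did not overlap, and 0.0087 for Krt8 (0.023 and 0.04 after adjustment). How many of all genes lack an overlap was not counted here either. The 28-month females are the same replicates as in the comparison with 6 months. In males, the fitted difference between 28 months in batch 1 and 20 months was 4.56 for Krt18 and 4.87 for Krt8. Those old males are the ones by which the genes were chosen, so the values are a description with no test, and under limma-voom the Krt18 value was 2.16.

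Before 28 months neither keratin was called by edgeR in the 4 comparisons without the 6-month males, by which the genes were chosen. These were 12 with 6 months (0.231% of genes called), 20 with 6 months (36.0%) and 20 with 12 months (49.8%) in females, and 20 with 12 months in males (48.2%). The adjusted p lay between 0.17 and 1 over these comparisons and both genes. In females of 20 against 6 months the permutation test of Krt8 gave an adjusted p of 0.04, for levels of 0.0247 to 0.106 CPM against no counts. Against the males of 6 months the differences, given with no test, were 0.01 for Krt18 and -2.70 for Krt8 at 12 months (9.85% of genes called) and 0.02 and -1.16 at 20 months (44.6%).

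**Figure D2:**
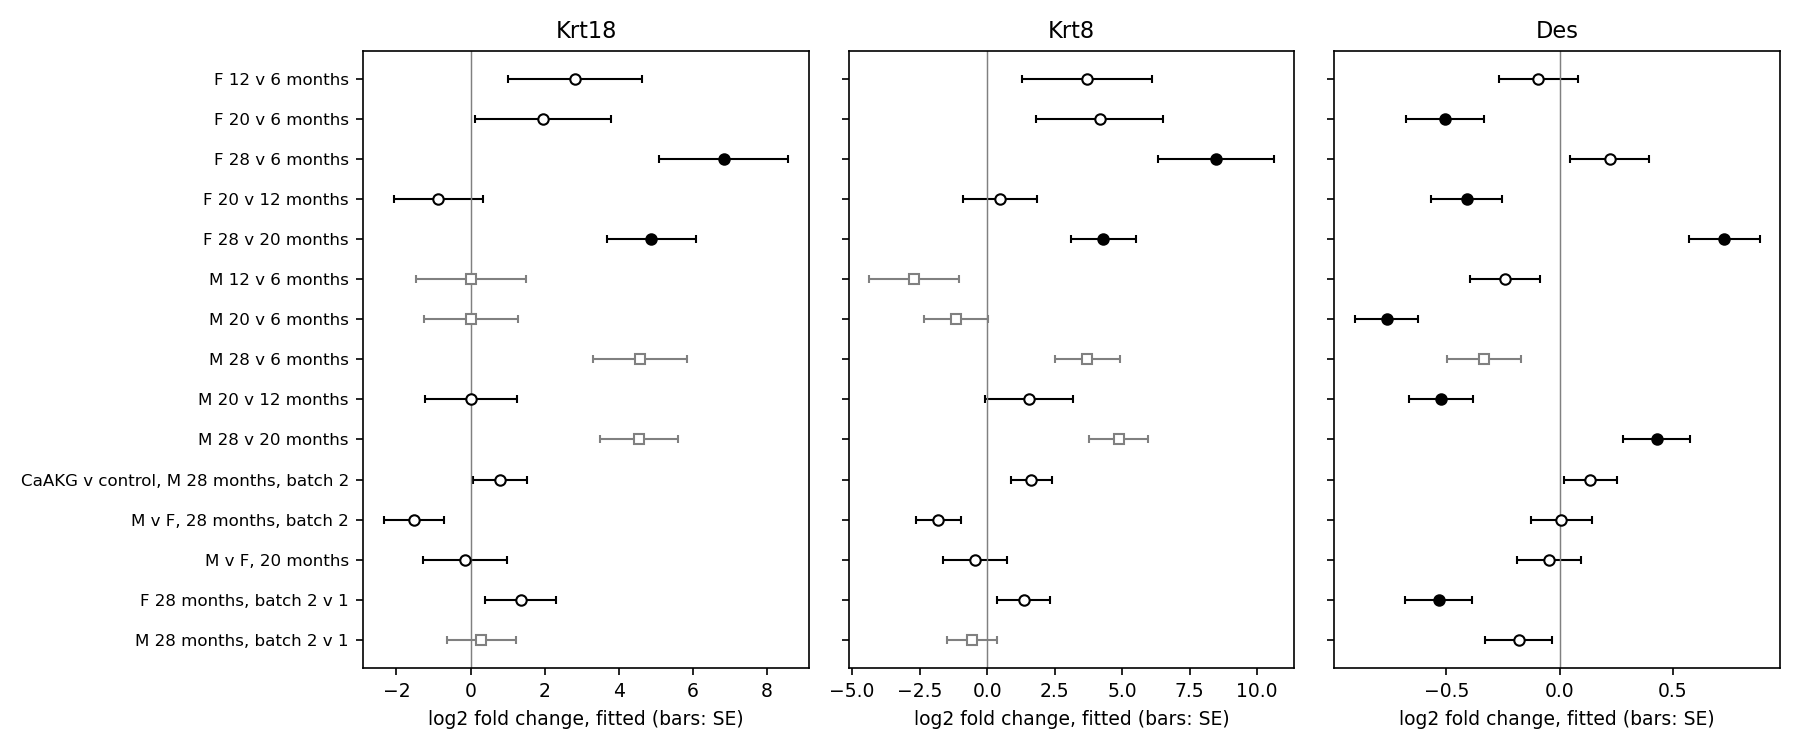
Fitted log2 fold changes of Krt18, Krt8 and Des in 15 comparisons, with bars for the standard error and filled points where the adjusted p was under 0.05. Grey squares carry no test: they are the contrast by which the keratins were chosen and, for the keratins, the other comparisons that use its male groups. Each panel has its own scale. The keratins have filled points in females of 28 against 6 and against 20 months and in no other comparison drawn, whereas Des has them in both directions.

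CaAKG feeding was compared in males of 28 months within batch 2. Control males had 0.013 to 36.9 CPM of Krt18 with a median of 2.74 CPM, and CaAKG-fed males 0.826 to 56.2 CPM with a median of 6.96 CPM. Krt8 ran from 0.0223 to 2.55 CPM (median 0.428 CPM) in controls and from 0.0964 to 9.88 CPM (median 1.24 CPM) in fed males. The groups overlapped over most of their range. The log2 differences were 0.80 for Krt18 (SE 0.729) and 1.63 for Krt8 (SE 0.763), and neither was called by edgeR (adjusted p = 0.97 and 0.69), in a comparison that called 0.0659% of all genes. The permutation tests gave p = 0.24 and 0.17. Without the libraries above 100 CPM of epidermal keratin, 2 of them from fed males and 1 from a control, the differences were 1.69 and 2.20, again without a call. At this spread a difference of such a size could not be told from none.

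Sex and batch were compared in the same way. In batch 2 at 28 months, the male minus female log2 difference was -1.53 for Krt18 and -1.80 for Krt8, without a call (edgeR adjusted p = 0.40 and 0.31, 1.30% of genes called). With limma-voom quality weights the Krt18 difference was -2.94 and called. At 20 months the sex differences were -0.15 and -0.44 (0.220% of genes called). Between the batches at 28 months, Krt18 differed by 1.36 in females, without a call (19.8% of genes called). In males the value was 0.30, with no test, since the batch 1 males chose the genes (1.02% of genes called). The male and female changes with age were compared for Des alone, because the male changes of the keratins rest on the groups that chose them. The male minus female difference in the change of Des was -0.26 from 6 to 20 months (edgeR adjusted p = 1) and -0.30 from 20 to 28 months (edgeR adjusted p = 0.72). In these interactions 0% of genes were called by edgeR, while 844 genes in the 20 against 6 months interaction and 1822 in the 28 against 20 months one had an unadjusted p under 0.05, and DESeq2 called 21 and 51.

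Desmin transcript was abundant in every group and was called both lower and higher with age. Des was at 4844 ± 743 CPM (SD, n = 4) in females and 5612 ± 825 CPM (SD, n = 6) in males at 6 months, and at 3413 ± 110 CPM (SD, n = 6) and 3302 ± 319 CPM (SD, n = 9) at 20 months. In females the 20-month values lay between 3308 and 3586 CPM and the 6-month values between 4099 and 5622 CPM. In males they lay between 2807 and 3944 CPM and between 4716 and 6670 CPM. The groups did not overlap in either sex, and how many of all genes do so was not counted. Des fell by 0.76 on the log2 scale in males (SE 0.141, edgeR adjusted p = 4.5e-06) and by 0.51 in females (SE 0.173, edgeR adjusted p = 0.016). These comparisons called 44.6% and 36.0% of all genes. Against 12 months Des fell by 0.52 in males and 0.41 in females (edgeR adjusted p = 0.0012 and 0.023), where 48.2% and 49.8% of all genes were called. The female calls were lost without the libraries against their sex label, at -0.44 against 6 months and -0.34 against 12 months. They were also lost without single replicates, namely replicate 2 or 3 of the 6-month females and replicate 3 of the 12-month females. Supplier changed together with age in these comparisons.

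At 28 months Des was higher than at 20 months, by 0.73 in females (SE 0.157, edgeR adjusted p = 0.00034) and by 0.43 in males (SE 0.149, edgeR adjusted p = 0.034). The female comparison called 29.9% of all genes, and 17.3% as higher. The male comparison called 17.0% of all genes, and 8.25% as higher. The batch 1 females had 3050, 10730, 3552, 4714, 5486 and 6376 CPM in replicates 8 to 13, a spread that overlaps the 20-month females, and replicate 9 stood far above the rest. Without it the difference was 0.45 and still called, while the exact permutation test gave p = 0.05 and an adjusted p of 0.15. Males of batch 1 had 3872, 4145, 4590, 4599 and 5039 CPM against 2807 to 3944 CPM at 20 months. The male call was lost in each of the 6 fits without replicate 6 or 7 at 20 months or without replicate 12, 13, 14 or 15 at 28 months, where values lay between 0.381 and 0.448. Against 6 months the female difference was 0.22 (adjusted p = 0.38) and that of the males -0.33. Females of batch 2 were at 3900 ± 277 CPM (SD, n = 7), 0.54 lower than batch 1 on the log2 scale (edgeR adjusted p = 0.0088). That comparison called 19.8% of all genes, and the call of Des was lost without replicate 9 of batch 1, at -0.25. CaAKG-fed males had 4311 ± 956 CPM (SD, n = 12) and their controls 3923 ± 286 CPM (SD, n = 10), a log2 difference of 0.14 (SE 0.116, edgeR adjusted p = 0.96).

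**Figure D3:**
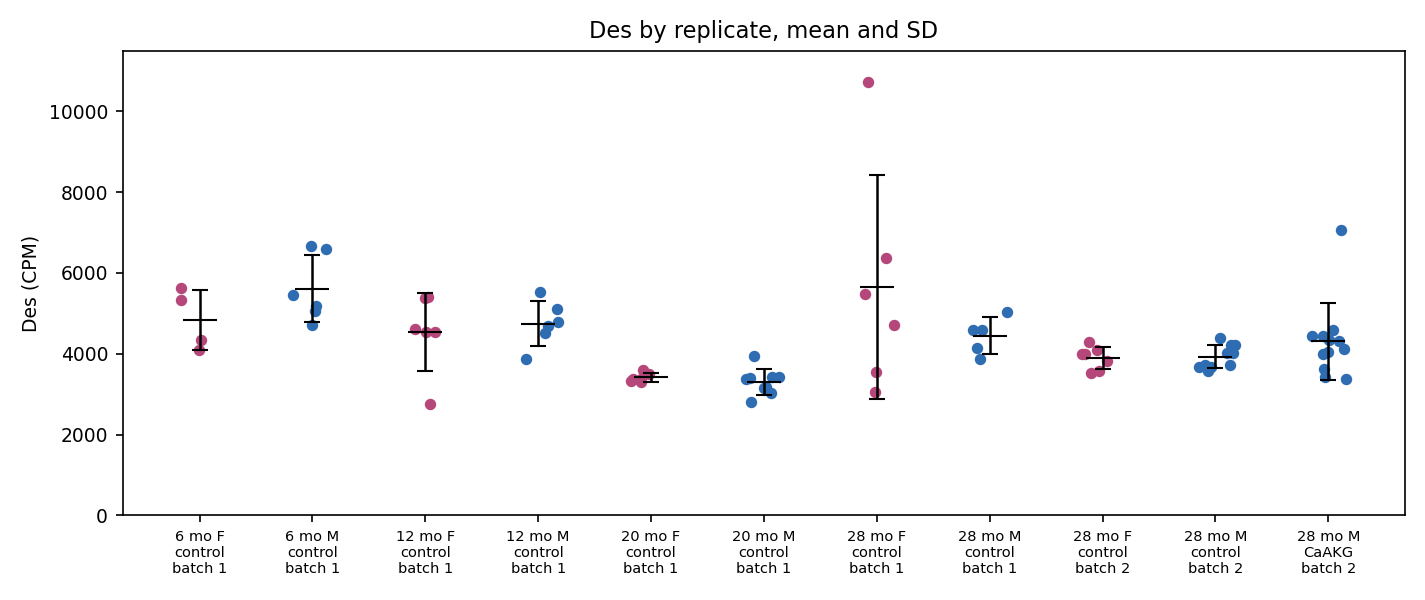
Des in CPM by group, 1 point per replicate, with the mean and SD as bars and the axis starting at 0. The 20-month replicates lie between 2807 and 3944 CPM, and 1 female of 28 months reaches 10730 CPM.

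Per length, even the oldest replicates held far less keratin than desmin transcript. The sum of Krt8 and Krt18 in CPM per kilobase of exon was 0.304% of that of Des at the median of 28-month replicates and 5.76% at most, against 0.0143% and 0.0907% in younger ones. Within the pair, Krt18 exceeded Krt8 in each of the 21 replicates with at least 30 counts of both genes, by 2.4 to 25.9 times per kilobase with a median of 10.5. The Krt8 pseudogene Krt8-ps reached at most 3 counts in a replicate and the long non-coding Gm36026, which overlaps Krt8 on the other strand, at most 5. The antisense gene Gm15179 at the end of Des reached 18.2 CPM.

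Krt8 and Krt18 varied together from replicate to replicate. Over the 66 replicates outside the 2 male groups that chose the genes, log2(CPM + 0.1) of the pair had r = 0.924 and rho = 0.876 (permutation p = 1e-05, the smallest that 100000 resamples give, adjusted p = 6e-05 over 6 relations), and r = 0.92 without the 2 replicates farthest from the median. Age sets old and young replicates apart, so the relation was also taken within batch 1 (r = 0.845), within batch 2, where all replicates are of 28 months (r = 0.899), and on values centred by group (r = 0.835). With Des the pooled r was 0.068 for Krt8 and 0.058 for Krt18 (adjusted p = 0.84 for each).

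Epidermal keratins were set against the pair in the same libraries. Their sum had a median of 2.46 CPM, and Krt10, a gene of the upper epidermis, alone lay between 0.633 and 2.85 CPM in the females of batch 2. The 5 replicates above 100 CPM were female replicate 8 of 28 months in batch 1 (7500 CPM), CaAKG-fed replicate 8 (4700 CPM), 12-month female replicate 5 (3010 CPM), CaAKG-fed replicate 10 (830 CPM) and batch 2 control male replicate 4 (587 CPM). In that first library Krt5 and Krt14, the basal epidermal pair, were at 971 and 709 CPM, and Krt1 and Krt2, of the upper layers, at 632 and 1332 CPM, with Krt10 at 2718 CPM.

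Krt18 in these 5 replicates was at 11.6, 1.01, 0.462, 9.0 and 36.9 CPM in the same order. The 12-month replicate among them is itself a younger replicate, so its place within the younger range of Krt18 was fixed in advance. Its Krt8, at 0.144 CPM, was the highest of its group. CaAKG-fed replicate 8 lay within the younger range of Krt18. Conversely, the replicate with the highest Krt18 of all (81.1 CPM) had 2.46 CPM of epidermal keratin and the next, CaAKG-fed replicate 9 with 56.2 CPM, had 1.88 CPM. In all 7 females of batch 2 Krt2 and Krt5 had no counts, while 6 of the 7 exceeded every younger replicate in Krt18. Over the 66 replicates the sum of epidermal keratins had r = 0.018 with Krt8 and 0.050 with Krt18 (adjusted p = 0.89 and 0.84), and rho of -0.17 and -0.111. Without the epidermal-keratin libraries r was -0.299 and -0.284 (permutation adjusted p = 0.046 for each). The highest sums left were all in younger replicates. They were 72.5 CPM in 6-month female replicate 4, 53.3 CPM in 12-month female replicate 6 and 47.2 CPM in 20-month male replicate 2. Within batch 1 (n = 37) r was 0.278 with Krt8 and 0.266 with Krt18 (permutation adjusted p = 0.21 for each). Without the 2 replicates farthest from the median of the keratin in question, r rose to 0.522 for Krt8 and fell to 0.0577 for Krt18. These last 2 values were not tested, and both shift with the replicates left out. Within batch 2 (n = 29) r was -0.0439 and 0.0217 (adjusted p = 0.92 for each).

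**Figure D4:**
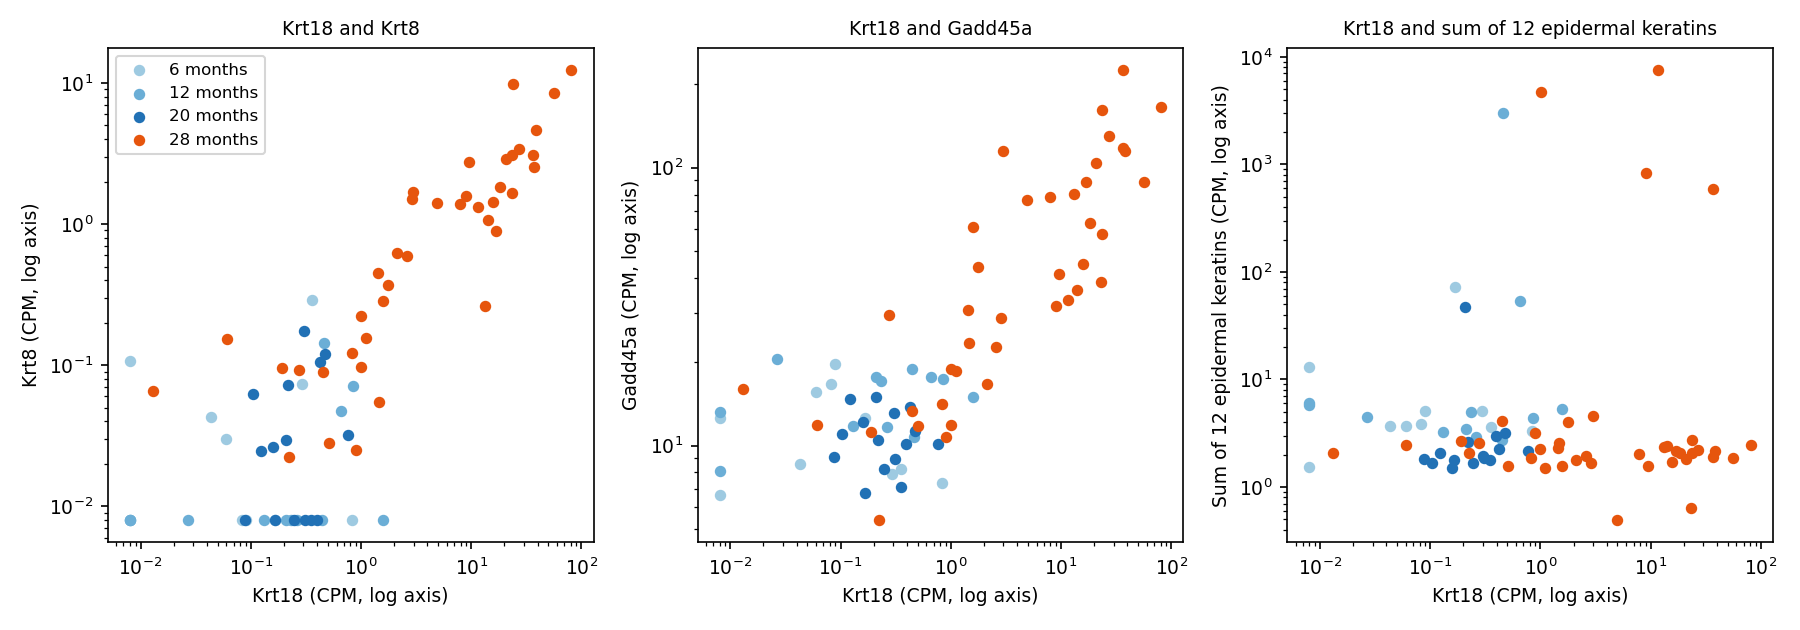
Krt18 in CPM against Krt8 (left), Gadd45a (middle) and the sum of 12 epidermal keratins (right), 1 point per replicate, all axes logarithmic, coloured by age. Values of 0 are drawn at 0.008 CPM. Krt8 and Gadd45a climb with Krt18 among 28-month replicates, whereas the 5 replicates above 100 CPM of epidermal keratin spread from 0.462 to 36.9 CPM of Krt18.

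Among the other keratins of simple epithelia, Krt19 and Krt7 were not called in old females and Krt80 was. Krt19, another type I partner of Krt8 in ducts and gut, had medians between 0.286 and 1.04 CPM over the 11 groups, and its difference between 28 and 6 months in females was -0.22 (adjusted p = 0.85). Krt7, a type II keratin of ducts, differed by 0.27 (adjusted p = 0.82). Krt80 was called higher at 1.86 (adjusted p = 0.037) and Krt23, at 5.00, was not (adjusted p = 0.17). Both were highest, at 117 and 25.6 CPM, in the library of that group with 7500 CPM of epidermal keratin. Krt20 did not pass the filter on low counts. Without that library and the other epidermal-keratin libraries Krt80 was at 0.80 and not called (adjusted p = 0.18), and Krt23 did not pass the filter. Of the 7 simple keratins 6 were tested and 3 were called higher in that comparison, which called 9.91% of all genes higher. They are Krt80, Krt8 and Krt18, the last 2 being the genes described here.

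Markers of whole epithelia were not high throughout the replicates with the most keratin. In the 10 replicates with the most Krt18, chosen by that value, the sum of 13 simple-epithelium genes, among them the adhesion genes Epcam and Cdh1, lay between 0 and 30.1 CPM with a median of 1.76 CPM, against 1.86 CPM over all replicates. The sum of 9 mesothelium genes lay between 0.904 and 2.74 CPM, against a median of 2.17 CPM over all. Epcam had no counts in 48 of 77 replicates. The replicate at 30.1 CPM is also the one with 587 CPM of epidermal keratin.

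In females of batch 1 at 28 months the lists of epithelial genes were called higher, and 1 library stood apart in them. Of the simple-epithelium genes 12 were tested, and 4 were called higher against 6 months (9.91% of all genes higher) and 10 against 20 months (17.3%), with medians of 4.88 and 6.17 against 0.09 for all genes in each. Of the epidermal keratins 11 were tested, and 4 and 11 were called higher, with medians of 6.40 and 12.8. The simple-epithelium sum was 325 CPM in replicate 8, the one with 7500 CPM of epidermal keratin, and between 1.34 and 6.06 CPM in the other 5. Without the libraries above 100 CPM of epidermal keratin, an alternative chosen after seeing the data, 6 simple-epithelium genes passed the filter and 1 was called higher in each comparison (9.57% and 17.6% of all genes higher). Of the epidermal keratins 7 then passed, and 0 were called higher and 4 lower against 6 months and 0 in either direction against 20 months. Krt18 and Krt8 were called higher in females without these libraries, as given above.

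In the list of 18 muscle filament and linker genes, which holds the proteins that join filaments to membranes, nuclei and desmosomes, 6 were called higher and 0 lower between 28 and 6 months in females, with a median of 0.39 against 0.09 over all genes (18.9% of all genes called, 9.91% higher). Jup, the junction protein plakoglobin, rose by 0.84 (adjusted p = 0.0051), Plec, the filament linker plectin, by 0.81 (adjusted p = 0.02) and Nes, the filament protein nestin of regenerating fibres and nerve-muscle junctions, by 0.77 (adjusted p = 0.034). Against 20 months 4 were higher and 4 lower (29.9% of all genes called, 17.3% higher). Among them were Dst, the linker dystonin, at -1.03 (edgeR adjusted p = 0.00027), Des at 0.73 and Mtm1, the lipid phosphatase myotubularin, at -0.57 (edgeR adjusted p = 0.0014). Without the epidermal-keratin libraries 6 were higher and 0 lower against 6 months, and 3 and 3 against 20 months (9.57% and 17.6% of all genes higher). From 6 to 20 months in males 6 rose and 6 fell, where 44.6% of all genes were called, led by Dst at 1.43 and by Hspb1 and Cryab, small heat shock proteins that bind desmin, at -1.39 and -0.85 (adjusted p = 2.3e-08, 4.5e-07 and 1.4e-06). Under CaAKG feeding edgeR called 0 of the 18, with 2 at an unadjusted p under 0.05. Of 18 genes of denervation and regeneration 7 were called higher and 0 lower in females of 28 against 6 months, with a median of 1.02 (9.91% of all genes higher), and 3 and 1 against 20 months (17.3% higher). Without the epidermal-keratin libraries these counts were 9 and 0 against 6 months and 5 and 1 against 20 months. The females of 28 months in batch 1 also had 10 of 10 neutrophil markers called higher against 6 months. The part of these cells in that comparison was not tested, and the relation of their markers with Krt18 at 28 months is given below.

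The genes whose levels were most like those of the pair were taken by the smaller of their Spearman correlations with Krt8 and Krt18 over all 77 replicates, as a description. Among them were Cpne2 (0.784), a calcium-dependent membrane-binding protein, Aif1l (0.779), an actin-binding protein, Aldh3a1 (0.744), an aldehyde dehydrogenase, Runx1 (0.741), a transcription factor that denervated muscle expresses, and Gadd45a (0.72), a stress-response gene that denervation induces. Values centred by group gave 0.543 to 0.761 for these 5 genes with either keratin. Aldh3a1 reached 20.6 CPM in the 28-month females of batch 1 and 14.1 CPM in the 12-month females, both groups with an epidermal-keratin library. Des had -0.011 and Krt19 -0.419 by the same measure.

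Gadd45a shows the shape of the likeness. It lay between 6.66 and 20.4 CPM in the 6 groups up to 20 months and reached 224, 161, 165, 118 and 115 CPM at most in the 5 groups of 28 months. In batch 1 males it was at 161 CPM in replicate 15, the one with the most Krt18 of that group. Over the 35 replicates of 28 months outside batch 1 males, centred by group, Krt18 had r = 0.839 and rho = 0.845 with Gadd45a, and r = 0.75 and rho = 0.756 with Chrng, the fetal subunit of the acetylcholine receptor that returns in denervated fibres (permutation p = 1e-05, the smallest possible, adjusted p = 5e-05 over 10 relations). Without the 2 replicates farthest in Krt18 r was 0.835 and 0.706. Myh3, embryonic myosin, and Ncam1, an adhesion molecule of denervated fibres, gave r = 0.281 and 0.298 (adjusted p = 0.20 for each). The summed simple-epithelium, mesothelium and neutrophil markers, the total count and the mitochondrial share of counts gave r of -0.005, -0.201, 0.0925, -0.251 and -0.23, none past the threshold. These 10 relations were set up after values of the data were known, and Gadd45a was also picked by its likeness, so its p is no independent support.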

How the data were processed

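Soleus RNA was sequenced as paired 150-base reads on an Illumina instrument, per the labels' protocols. The submitters' processing notes name FastQC, STAR 2.7.11b, RSEM 1.3.3 and the mm10 genome. The authors deposited RSEM expected counts per gene ID, which were rounded here (8.99% of values were not whole). Libraries held 19460372 to 81637535 counts. Of the table's columns 55 matched no sample and were not used. Symbols from the reference matched 35298 of 36904 IDs, and the rest held 0.883% of counts.

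Genes were filtered with filterByExpr (minimum count 10, total 15) and fitted with edgeR 4.0.16 on 11 group means (TMM, quasi-likelihood test, Benjamini-Hochberg threshold 0.05) in R 4.3.3. The test was tested on simulated data. CPM use TMM. Single values were compared by two-sided permutation tests (scipy 1.17.1, pseudocount 0.1 CPM). Gene names follow rules on fixed lists: the 3 members, the simple keratins, 5 epidermal keratins, up to 3 filament genes per comparison and 6 genes by likeness, of which 1 is not reported here. The members and lists were chosen with earlier results of these data known. Alternatives used DESeq2 1.42.0, limma 3.58.1, other scaling, filters, samples and blocks.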

Additional observations from a re-analysis of the deposited data

Results flagged for a closer look

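In 9 of the 29 sets tested (1 gene in 1 group of 4 to 10 replicates) 1 replicate stood apart from the rest by Dixon's criterion. Chance meets it in about 1 in 20 sets where values are normally distributed. The keratin levels are skewed and hold many zeros, so that rate does not apply and the flags are a description. Female replicate 1 of 28 months in batch 2 was highest in both keratins, with 12.3 CPM of Krt8 (next 3.39 CPM) and 81.1 CPM of Krt18 (next 27.0 CPM). Its epidermal keratin sum was 2.46 CPM, and its Gadd45a level was 165 CPM. Krt18 stood apart at 36.4 CPM in female replicate 11 of 28 months in batch 1 (next 11.6 CPM) and at 36.9 CPM in control male replicate 4 of batch 2 (next 18.3 CPM), which also had 587 CPM of epidermal keratin.

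Among younger replicates, 12-month male replicate 2 had 0.0707 CPM of Krt8, where the other 5 had none, and 0.848 CPM of Krt18 (next 0.262 CPM). That Krt8 value is 2 counts, and where all others have none any count meets the criterion. Krt8 stood apart at 0.291 CPM in 6-month male replicate 1 (next 0.106 CPM) and at 0.144 CPM in 12-month female replicate 5 (next 0.0477 CPM). The latter had 3010 CPM of epidermal keratin and, with 2760 CPM against 4540 CPM in the nearest replicate, stood apart as the lowest Des value of its group.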

How the results depend on the processing

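Leaving out 1 replicate gave 243 values per gene, the contrast that chose the keratins aside. These include comparisons that use the male groups by which the keratins were chosen, where no test of the keratins is reported. In the other comparisons Krt8 and Krt18 stayed on the same side of the threshold in each fit. Over all 243, 27 values of Krt18 and 2 of Krt8 changed sign, none of them in the female comparisons that were called. With limma-voom quality weights the keratin calls were lost at 5.74 for both genes in females of 28 against 6 months, and at 4.31 (Krt18) and 3.39 (Krt8) against 20 months, while Krt18 in males against females of 28 months gained a call at -2.94. In males of 28 against 20 months Krt18 was then at 2.16. Fitting only the compared groups ended the calls in females of 28 against 6 months (Krt18 6.86, Krt8 8.56) and that of Des between batches in females (-0.541).

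With the replicate block, the number being a term of the fit, Des in males of 28 against 20 months was past the threshold no longer (0.478). The keratin values of that comparison, given with no test, were then 2.70 for Krt18 and 3.60 for Krt8. Krt18 moved to 2.95 against 6 months. Numbers 14 and 15 occur once each, so the block removes those 2 males. Same-numbered replicates did not deviate together (median r 0.019 over 228 pairs, best match with the own number in 5 of 75), so the numbers do not pair the samples.

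For Des, length-trend offsets, added after seeing the data, ended calls at -0.535 (females, 20 against 6 months), -0.478 (females, batch 2 against 1) and 0.431 (males, 28 against 20 months). Without a low-count filter the calls were lost at -0.396 (females, 20 against 12 months) and 0.434 (males, 28 against 20 months). Without libraries against their sex label they were lost at -0.437 (20 against 6 months) and -0.341 (20 against 12 months). With limma-voom the female batch call was lost at -0.396 and a male one appeared at -0.252. Leaving out 1 replicate gave -0.537 to -0.369 (females, 20 against 12 months), -0.608 to -0.426 (20 against 6 months), -0.643 to -0.247 (batches, females) and 0.381 to 0.474 (males, 28 against 20 months), and 3.16 to 5.25 for Krt18 in males of 28 against 6 months.

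In females of 28 against 6 months 3452 genes were called, 1194 to 4446 when 1 replicate was left out (1194 without 6-month replicate 3 and 2214 without replicate 2), 1831 with length offsets, 0 with only the compared groups by edgeR (4150 by DESeq2 on all groups), 1089 with the replicate block and 1895 without libraries against their sex label. Against 20 months 5452 became 3026 with length offsets and 3383 with the block. The relation with epidermal keratins turned to -0.299 (Krt8) and -0.284 (Krt18) without the epidermal-keratin libraries, and that of Des became -0.404 on values centred by group. The cause of these shifts was not tested. Keratin levels below 1 CPM rest on few reads.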
